A study of Mus musculus with 6 samples.

Results

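The 8 genes Cpt1a, Cpt2, Acadm, Acadl, Acadvl, Hadha, Hadhb and Ehhadh encode central enzymes of fatty acid oxidation. They were taken from the 19087 genes measured in mouse MMH cells as the features whose platform annotation gives exactly 1 gene symbol and that symbol is one of the 8. The arrays carried 20 such features, of which 11 had a value, and all 8 genes were measured. MMH cells ("Met murine hepatocytes" in the labels) are an immortalised line of liver cells with progenitor character. The tested cells carried Prox1 (MMH-Prox1), a homeobox transcription factor of liver development that is known to bind nuclear receptors such as HNF4A as a corepressor. Their counterparts carried the empty expression vector (MMH-pCDNA3.1), and the titles of all samples bear the tag ED14. The labels do not say whether either line was a clone or a pool, or at what time after transfection RNA was taken. Each of 6 arrays compared both RNAs in 2 colours, with Prox1 RNA in Cy5 on 3 arrays and in Cy3 on the other 3.

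Fatty acid oxidation shortens fatty acyl chains to acetyl-CoA. Long chains cross the inner mitochondrial membrane as carnitine esters and then pass through repeated rounds of dehydrogenation, hydration, a second dehydrogenation and thiolysis, while peroxisomes run a parallel pathway for substrates that mitochondria handle poorly. In hepatocytes the acetyl-CoA feeds ketone body synthesis during fasting, and the genes are known targets of the nuclear receptor PPARα and its partners. None of the 8 genes encodes an enzyme of ketone body synthesis itself, so ketogenesis is described below from other genes.

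The promoters of the genes are shown for 4 windows, those of Cpt1a and Acadl, the genes with the lowest scores, of Acadm, and of Hadhb, whose window overlaps that of its neighbour Hadha. Each window runs from 250 bases before to 50 bases after a transcript start (RefSeq, GRCm38.p6) and is printed 5′ to 3′ on the gene's strand. Capitals mark 3 motifs on either strand, the nuclear receptor half-site AGGTCA, the GC box GGGCGG and the CCAAT box.
Cpt1a (chr19:3323051-3323350, plus strand): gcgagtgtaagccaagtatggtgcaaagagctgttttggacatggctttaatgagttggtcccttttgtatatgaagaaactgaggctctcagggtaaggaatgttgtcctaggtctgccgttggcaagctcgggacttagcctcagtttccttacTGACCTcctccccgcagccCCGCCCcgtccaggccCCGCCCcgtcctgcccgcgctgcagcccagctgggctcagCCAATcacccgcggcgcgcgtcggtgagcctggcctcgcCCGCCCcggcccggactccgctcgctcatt
Acadl (chr1:66863260-66863559, minus strand): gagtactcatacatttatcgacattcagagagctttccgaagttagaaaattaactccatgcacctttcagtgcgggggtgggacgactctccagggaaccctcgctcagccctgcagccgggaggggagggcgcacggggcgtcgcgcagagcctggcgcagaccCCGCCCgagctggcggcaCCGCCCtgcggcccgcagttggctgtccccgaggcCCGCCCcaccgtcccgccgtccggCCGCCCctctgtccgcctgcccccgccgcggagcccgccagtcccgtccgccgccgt
Acadm (chr3:153944594-153944893, minus strand): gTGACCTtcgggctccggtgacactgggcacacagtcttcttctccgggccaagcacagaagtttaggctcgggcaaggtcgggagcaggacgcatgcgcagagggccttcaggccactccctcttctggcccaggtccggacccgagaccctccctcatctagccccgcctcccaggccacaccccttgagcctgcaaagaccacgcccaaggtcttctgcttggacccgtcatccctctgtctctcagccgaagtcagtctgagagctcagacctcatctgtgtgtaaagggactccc
Hadhb (chr5:30155003-30155302, plus strand): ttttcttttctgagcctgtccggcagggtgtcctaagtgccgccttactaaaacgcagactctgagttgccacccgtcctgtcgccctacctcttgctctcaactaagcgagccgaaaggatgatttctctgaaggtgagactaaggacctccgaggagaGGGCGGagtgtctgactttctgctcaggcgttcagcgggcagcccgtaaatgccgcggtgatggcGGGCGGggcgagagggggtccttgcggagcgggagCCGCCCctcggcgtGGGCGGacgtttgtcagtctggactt
The Acadl window had 70.3% G and C and 4 GC boxes, against a median of 52.7% over all 32851 windows of this length. Cpt1a held 1 half-site, 3 GC boxes and 1 CCAAT box, and Acadm held 1 half-site and no GC box. Hadha and Hadhb are transcribed away from each other, and 228 of the 300 bases of their windows are the same DNA. Over the 8 windows, 3 held the half-site AGGTCA (16.3% of all windows), 6 held GGGCGG (35.7%) and 2 held CCAAT (37.4%). The GC box of the Hadha window lies in the shared bases and is counted again in the Hadhb window. The direct repeat AGGTCANAGGTCA, searched on both strands, was in 0 of the 8 windows and in 0.0396% of all windows, and the E-box CACGTG was in 0 of the 8 and in 7.15% of all. A match describes letters in the window and not a bound site, and the arrays did not measure binding.

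Each feature carries a signed, log-like ratio of both RNAs, deposited with a standard deviation (SD) of 1 over the features of each array. Scores below are in these SD units and cannot be turned into fold changes. The 3 columns with Prox1 in Cy3 were identical in every feature and were counted once, which left 4 distinct profiles. They are called the 3 Cy5 arrays and the Cy3 profile after the dye of the Prox1 RNA. Whether the Cy3 profile is 1 array or a mean of the 3 is not known, and the fits treated it as 1 array. Positive scores likely mean more RNA in Prox1 cells. That direction rests on 1 feature for Prox1 itself and not on the labels. This feature ranked 4 of 41230, scoring 5.44, 5.22 and 5.17 on the Cy5 arrays and 6.60 in the Cy3 profile. The other 2 Prox1 features had effects of 0.09 ± 0.28 and −0.16 ± 0.25 (SE, 4 profiles). The labels name no separate cultures. The p-values thus reflect only how far these arrays differ from each other, and that spread may be technical. Arrays with Prox1 in Cy5 correlated with each other at r = 0.915 to 0.930 and with the Cy3 profile at r = 0.397 to 0.444 (across features, which are not independent replicates). An effect below, given ± SE over the 4 profiles, is the intercept of a limma model with the dye orientation as a random block, and a gene passed at an adjusted p under 0.05 over 28617 features.

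With Prox1, 2 of the 8 genes fell and 0 rose. Cpt1a, the gate of fatty acids into mitochondria, and Acadl, the long-chain acyl-CoA dehydrogenase, were the genes that passed. At an unadjusted p under 0.05, 7 were lower and 0 higher in the same limma model. Over all features tested 8.41% passed the adjusted test (5.03% fell and 3.38% rose), and 9.97% were lower and 10.3% higher at an unadjusted p under 0.05. The same 7 genes had a negative score in all 4 profiles, which held for 19.5% of all features tested, and Ehhadh was the exception. The median effect of the 8 genes was −0.73 SD units, against 0.04 over all features tested. The number of genes that passed depended on how the dye orientation was treated. With a fixed dye term, whose error leaves out the difference between orientations, 7 fell and 0 rose (19.7% of all features fell there and 25.3% rose). With the mean of each orientation as 1 replicate, limma passed 0 of the 8 genes and 0 of all 28617 features. In that setting 3 of the 8, and 3975 of all features, had an unadjusted p under 0.05. A lower score in an array of whole cultures cannot tell fewer cells that express a gene from less RNA per cell.

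**Figure D1:**
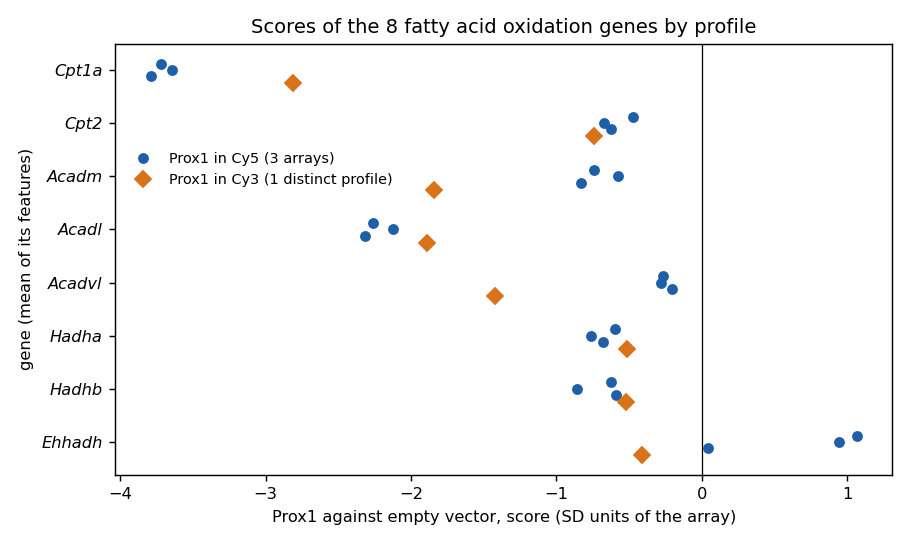
Score of each of the 8 genes (mean of its features, SD units, horizontal axis) in the 3 arrays with Prox1 in Cy5 (blue circles) and in the 1 distinct profile with Prox1 in Cy3 (orange diamonds). All points but those of Ehhadh lie left of 0. Cpt1a, between −3.79 and −2.81, lies farthest from 0.

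The carnitine palmitoyltransferases move long-chain acyl groups across the mitochondrial membranes. Cpt1a encodes the liver form of the outer membrane enzyme, which is inhibited by malonyl-CoA and limits the rate of the pathway. Its scores were −3.72, −3.65 and −3.79 on the Cy5 arrays and −2.81 in the Cy3 profile. Every profile was strongly negative, and the effect, −3.30 ± 0.27 (limma adjusted p = 0.0019), was rank 191 from the bottom of 28617. Of the 11 features annotated to Cpt1a, 9 had no value on any array. The remaining pair stood at −3.47 ± 0.37 and −3.12 ± 0.22 and both passed (limma adjusted p = 0.005 and 0.0014 over all features tested singly).

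Cpt2, the inner membrane enzyme that returns the acyl group to coenzyme A, had scores of −0.47, −0.67 and −0.63 on the Cy5 arrays and −0.74 in the Cy3 profile. The profiles lay close together and all below 0, but the effect of −0.66 ± 0.21 did not pass (limma adjusted p = 0.13). Its size was well under that of Cpt1a, although scores of different features need not be equal ratios and the difference was not tested.

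Acyl-CoA dehydrogenases catalyse the first step of each round and differ in the chain length they prefer. Acadl, for long chains, had scores of −2.26, −2.12 and −2.31 on the Cy5 arrays and −1.89 in the Cy3 profile. The Cy3 profile lay slightly above the Cy5 arrays, and the effect was −2.07 ± 0.21 (limma adjusted p = 0.004), rank 580 from the bottom. Acadm, for medium chains, had −0.74, −0.58 and −0.83 on the Cy5 arrays and −1.84 in the Cy3 profile. All 4 profiles were below 0, but the Cy3 profile was lower than every Cy5 array, and the effect of −1.24 ± 0.31 did not pass (limma adjusted p = 0.068). Acadvl, the enzyme for very long chains bound to the inner membrane, had −0.26, −0.28 and −0.21 on the Cy5 arrays and −1.42 in the Cy3 profile. The 3 Cy5 arrays agreed closely near 0 and only the Cy3 profile was far below it. The effect of Acadvl was −0.79 ± 0.30 (limma adjusted p = 0.20). From the lowest, the effects ran Acadl, Acadm and Acadvl, and differences between these genes were not tested.

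Hadha and Hadhb encode the α and β subunits of the mitochondrial trifunctional protein, which carries out the last 3 steps for long chains. Hadha, averaged over 3 features, had scores of −0.60, −0.76 and −0.68 on the Cy5 arrays and −0.51 in the Cy3 profile. Hadhb, with 1 feature, had −0.62, −0.86 and −0.59 on the Cy5 arrays and −0.52 in the Cy3 profile. The ranges of both subunits overlapped on the arrays and their effects were nearly equal, −0.60 ± 0.20 for Hadha and −0.61 ± 0.22 for Hadhb. Neither passed (limma adjusted p = 0.15 for Hadha and 0.19 for Hadhb).

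The mean of Hadha covers features that differed. The feature annotated to the RefSeq transcript had scores of −1.50, −1.63 and −1.49 on the Cy5 arrays and −1.40 in the Cy3 profile, and it fell when tested singly (−1.48 ± 0.22; limma adjusted p = 0.014). Both other features are annotated to cDNA clones. They had effects of −0.42 ± 0.21 and 0.09 ± 0.27 and did not pass (limma adjusted p = 0.36 and 0.98). Counting a gene when at least 1 of its features passes, 3 of the 8 genes fell, with Hadha beside Cpt1a and Acadl, and 7.43% of all 19087 genes fell by that count. Feature by feature, 4 of the 11 fell, against 4.58% of all features tested singly.

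**Figure D2:**
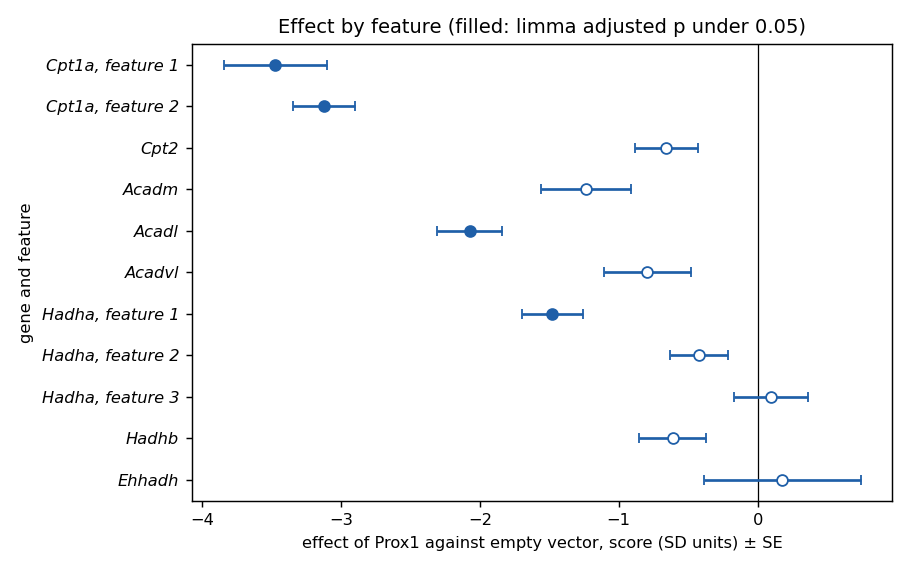
Effect of Prox1 against empty vector for each of the 11 measured features (SD units, horizontal axis; bars are ± 1 SE, 4 profiles), with the features of a gene numbered from the lowest effect. Filled circles passed an adjusted p of 0.05. Both Cpt1a features, Acadl and 1 of 3 Hadha features are filled, and Ehhadh has the widest bar.

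Ehhadh encodes the peroxisomal bifunctional enzyme, which performs the hydratase and second dehydrogenase steps in peroxisomes. Its scores were 1.07, 0.94 and 0.04 on the Cy5 arrays and −0.41 in the Cy3 profile. The Cy5 arrays themselves ranged from near 0 to above 1, with an SD of 0.56 against a median of 0.14 over all features, and the orientations had opposite signs. The effect of 0.18 ± 0.56 did not pass (limma adjusted p = 0.98), and these arrays give no direction for Ehhadh.

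Agreement between the dye orientations varied from gene to gene. With Prox1 in Cy5 minus Prox1 in Cy3, the difference was −0.91 ± 0.15 SD units for Cpt1a, 1.12 ± 0.16 for Acadm and 1.17 ± 0.14 for Acadvl, and these 3 of the 8 passed the limma test of the dye term (adjusted p = 0.0073, 0.0055 and 0.0031), as did 39.1% of all features tested. That test takes its spread from the Cy5 arrays alone. For Cpt1a both orientations were far below 0, so the difference lay in the size of the fall. It came mainly from 1 of the 2 measured Cpt1a features, with a difference of −1.51 against −0.31 for the other. For Cpt2, Acadl, Hadha and Hadhb the difference was at most 0.34 in size and did not pass (adjusted p = 0.14 to 0.49). Replicate 4, an array with Prox1 in Cy3, also had another RNA extraction (Trizol instead of column purification). A dye effect, the extraction and any other difference between the 2 sets of arrays cannot be told apart.

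**Figure D3:**
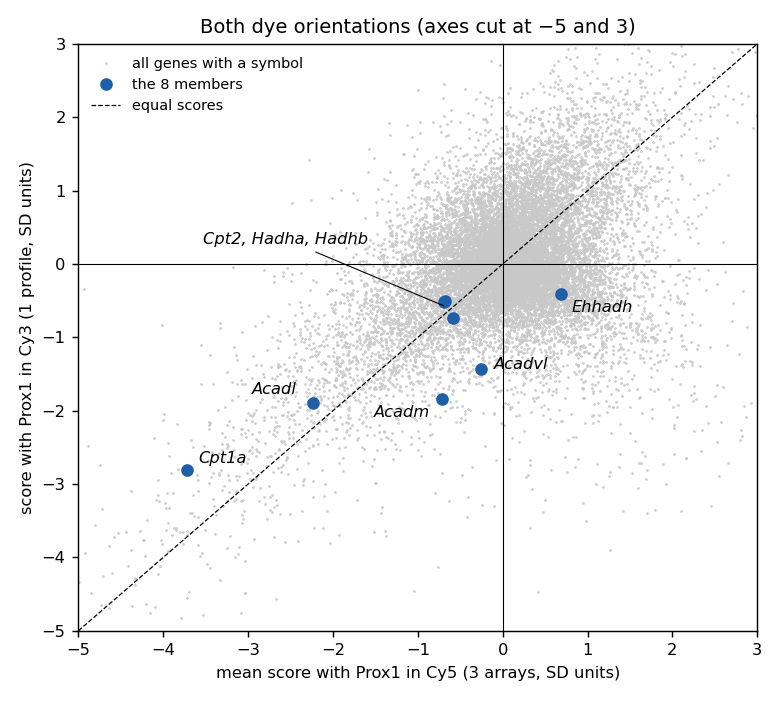
Mean score of each gene over the 3 arrays with Prox1 in Cy5 (horizontal axis, SD units) against its score in the profile with Prox1 in Cy3 (vertical axis, SD units). Grey dots are the 19087 genes with a symbol, of which 138 lie outside the axes, blue circles the 8 genes, and the dashed line equal scores. Cpt1a and Acadl lie at the lower left, Acadm and Acadvl below the line, and Ehhadh right of 0 and below it.

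Other genes of fatty acid entry and activation went both ways. Of 14 further genes of carnitine metabolism and fatty acid uptake 2 fell and 1 rose, with a median effect of −0.24. Crot, the peroxisomal carnitine octanoyltransferase, had scores of −4.04, −3.78 and −3.83 on the Cy5 arrays and −3.12 in the Cy3 profile (effect −3.53 ± 0.26; limma adjusted p = 0.0016). All 4 profiles were far below 0, and both of its features passed. Cd36, a membrane receptor that takes up fatty acids, fell (−2.01 ± 0.24; limma adjusted p = 0.0068), and the fatty acid transport protein gene Slc27a4 rose (0.88 ± 0.20; limma adjusted p = 0.048). Of the 2 Slc27a4 features, with effects of 0.19 and 1.58, 1 passed when tested singly. Slc27a4 did not pass after centring or quantile normalization (limma adjusted p = 0.063 and 0.056). Among 15 acyl-CoA synthetase and thioesterase genes 1 fell and 0 rose in limma (4 lower and 2 higher at an unadjusted p under 0.05; 4 and 3 with a fixed dye term), with a median of 0.05. The gene that fell was Acsl5, a long-chain acyl-CoA synthetase of mitochondria and endoplasmic reticulum (−2.28 ± 0.22; limma adjusted p = 0.0033).

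The remaining mitochondrial enzymes of the spiral had a median effect of −0.41, and 0 of 14 genes passed in limma (3 lower and 1 higher at an unadjusted p under 0.05; 9 and 2 with a fixed dye term). The largest effects in size were those of Hadh, the short-chain 3-hydroxyacyl-CoA dehydrogenase, at −1.12 ± 0.40, and of Acad8, which acts in valine breakdown, at 0.87 ± 0.26 (limma adjusted p = 0.18 and 0.12). The 3 genes of the electron transfer flavoprotein and its oxidoreductase, which take electrons from the acyl-CoA dehydrogenases, gave 0 passes (0 also at an unadjusted p under 0.05; 1 lower with a fixed dye term). Etfa stood at −0.59 ± 0.31, Etfdh at 0.17 ± 0.21 and Etfb at 0.00 ± 0.29 (limma adjusted p = 0.38, 0.85 and 1).

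The peroxisomal list held the most falls among the oxidation lists. Of 18 further peroxisomal genes 6 fell and 1 rose, with a median effect of −0.76 SD units. Amacr, which converts branched acyl-CoA esters and bile acid intermediates, fell (−2.16 ± 0.29), as did Acaa1a (−1.89 ± 0.27) and Acaa1b (−1.91 ± 0.29), which encode peroxisomal thiolases (limma adjusted p = 0.0099, 0.012 and 0.015). Acaa1a and Acaa1b are close copies of each other, and whether their features tell them apart is not known here. Pecr, a peroxisomal enoyl-CoA reductase used in chain elongation, was the gene that rose (1.94 ± 0.32; limma adjusted p = 0.02) and is named after its value was seen. Differences between this list and the 8 genes were not tested.

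Averaged over their features, the ketone body genes did not pass. Of 8 measured genes 0 fell and 0 rose in limma (1 lower and 0 higher at an unadjusted p under 0.05; 5 and 0 with a fixed dye term), with a median effect of −0.33 SD units. Hmgcll1, a lyase that releases acetoacetate outside mitochondria, had the lowest effect (−1.17 ± 0.31; limma adjusted p = 0.081), followed by Acat1, the mitochondrial acetoacetyl-CoA thiolase (−0.88 ± 0.41; limma adjusted p = 0.32). The ketone-using enzyme gene Oxct1 stood at −0.36 ± 0.24 and the cytosolic acetoacetyl-CoA synthetase gene Aacs at −0.30 ± 0.23. The dehydrogenase gene Bdh1 stood at −0.13 ± 0.23 and its cytosolic relative Bdh2 at 0.14 ± 0.25. The monocarboxylate carrier genes Slc16a1 and Slc16a6 stood at −0.38 ± 0.21 and −0.20 ± 0.31. The mean of Slc16a1 covers 3 features with effects between −2.02 and 0.63, of which 1 fell when tested singly. The last 6 had limma adjusted p-values between 0.44 and 0.94. The 2 other genes of the list were not analysed here.

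Among 21 regulators of the pathway 3 fell and 0 rose in limma (4 lower and 0 higher at an unadjusted p under 0.05; 8 and 3 with a fixed dye term), with a median effect of −0.05 SD units. Hnf4a, a nuclear receptor that drives hepatocyte genes, fell (−2.96 ± 0.19), and so did Fgf21, a fasting hormone (−2.59 ± 0.20, limma adjusted p = 0.00097 and 0.0017). Both means cover features that differed. Tested singly, 2 of 3 Hnf4a features fell (effects −4.61 to −0.15) and 1 of 2 Fgf21 features (−4.84 to −0.34). The nuclear receptor gene Pparg fell too (−1.34 ± 0.29, limma adjusted p = 0.043). Ppara, which encodes PPARα, did not pass (−0.39 ± 0.21, limma adjusted p = 0.42). Of 14 genes linked to PPARα outside oxidation 4 fell and 0 rose in limma (5 lower and 0 higher at an unadjusted p under 0.05; 7 and 2 with a fixed dye term), with a median of −0.30. They were Txnip, better known as a glucose-responsive arrestin gene (−7.50 ± 0.23; limma adjusted p = 0.00026), the growth factor gene Fgf1 (−4.68 ± 0.38; 0.002), the pantetheinase gene Vnn1 (−1.39 ± 0.23; 0.019) and, named after its value was seen, the glycerol phosphate dehydrogenase gene Gpd1 (−0.97 ± 0.22; 0.048). The other 10 of the 14 did not pass and had effects on both sides of 0. Among those 10, named after their values were seen, were Pdk4 (−0.22 ± 0.19), Angptl4 (−0.22 ± 0.32) and Plin2 (−1.52 ± 0.58). Cyp4a10 (−0.39 ± 0.21) and Cyp4a14 (0.41 ± 0.39) were others. Txnip, Fgf1 and Fgf21 were known from earlier results of these data, so these counts are not independent evidence of a direction.

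**Figure D4:**
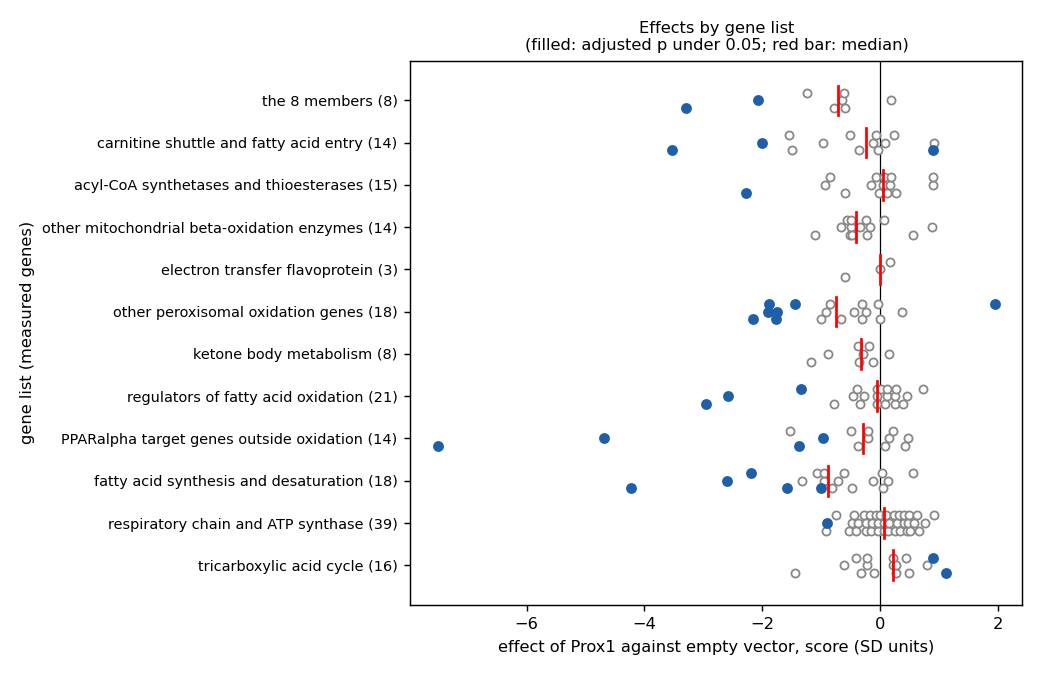
Effect of Prox1 against empty vector (SD units, horizontal axis) for each measured gene of 12 lists, with the number of genes in parentheses. Filled circles passed an adjusted p of 0.05 and red bars are list medians. The medians of the 8 genes (−0.73), the peroxisomal genes (−0.76) and the synthesis and desaturation list (−0.89) lie lowest of the 12. That of the respiratory chain is 0.06.

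A list of genes of fatty acid synthesis, desaturation and lipid assembly also held falls. Of 18 genes 5 fell and 0 rose in limma (9 lower and 0 higher at an unadjusted p under 0.05; 13 and 1 with a fixed dye term), with a median effect of −0.89 SD units. The acyltransferase genes Agpat2 (−4.22 ± 0.33) and Dgat2 (−1.58 ± 0.21) and the malic enzyme gene Me1 (−2.60 ± 0.22) passed (limma adjusted p = 0.0018, 0.0098 and 0.0023). Scd1 (−2.19 ± 0.45) and Elovl5, a desaturase and an elongase gene, completed the 5 (limma adjusted p = 0.037 and 0.047; both effects negative) and are named after their values were seen. Fasn, Acaca and Acly, whose enzymes build the chain and its precursors, did not pass. Their effects were 0.02 ± 0.28, −0.13 ± 0.20 and −0.48 ± 0.21, and they too are named after their values were seen. The respiratory chain, which receives the electrons of oxidation, had a median of 0.06, and 1 of 39 genes fell and 0 rose in limma (2 lower and 1 higher at an unadjusted p under 0.05; 9 and 12 with a fixed dye term). That gene was Cox8a, a subunit of cytochrome c oxidase (−0.90 ± 0.19; limma adjusted p = 0.043). A list of genes of the tricarboxylic acid cycle, which burns the acetyl-CoA, also holds pyruvate dehydrogenase and pyruvate carboxylase genes. Of its 16 genes 2 rose and 0 fell in limma (4 higher and 2 lower at an unadjusted p under 0.05; 7 and 4 with a fixed dye term). The genes that rose were Dld (1.12 ± 0.18; limma adjusted p = 0.02) and Idh3b (0.89 ± 0.19; limma adjusted p = 0.043).

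Of the 23 genes named above that passed, leaving out the 8, 14 had more than 1 feature. In 6 of these every feature passed with the sign of the gene, and 0 had a feature that passed in the opposite direction. Without 1 or more of the Cy5 arrays 11 of the 23 did not pass, namely Slc27a4, Acaa1b, Pecr, Pparg, Vnn1, Gpd1, Scd1, Elovl5, Cox8a, Dld and Idh3b (limma adjusted p up to 0.12). Cpt1a and Acadl passed without any 1 of the Cy5 arrays (highest limma adjusted p = 0.013 and 0.02).

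Genes whose scores lay closest to the median profile of the 8 were Rdh7, Lactb2, Anxa6, Tcte3 and Apbb3, with root mean square differences of 0.04 to 0.07 SD units over 4 profiles. That median profile was −0.61, −0.72 and −0.65 on the Cy5 arrays and −1.08 in the Cy3 profile. Over 4 profiles of the same RNAs such likeness only describes similar scores.

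Some markers of hepatocytes and of cholangiocytes fell, as Cpt1a and Acadl did, and most did not pass. Of 12 hepatocyte and hepatoblast markers 4 fell and 0 rose in limma (7 lower and 1 higher at an unadjusted p under 0.05; 9 and 3 with a fixed dye term), with effects between −5.71 and 0.55, and Hnf4a stands both in this list and among the regulators. The 4 were Trf (−5.71 ± 0.31), Alb (−5.17 ± 0.54), Krt8 (−3.55 ± 0.42) and Hnf4a, which encode transferrin, albumin, a keratin and the nuclear receptor. Of 6 cholangiocyte markers 2 fell and 0 rose (2 and 0 unadjusted; 3 and 1 with a fixed dye term), with effects between −4.56 and 0.53. They were Anxa13, an annexin gene (−4.56 ± 0.41), and Krt19, a keratin gene (−3.47 ± 0.63). Of 8 fibroblast and stellate cell markers, 5 macrophage and leukocyte markers and 6 endothelial markers 0 passed, with effects between −1.30 and 0.73, −0.06 and 0.36, and −0.18 and 0.15. At an unadjusted p under 0.05 these 3 lists held 2 lower and 1 higher, 0 and 0, and 0 and 0, and with a fixed dye term 4 and 1, 0 and 2, and 0 and 0. Ratios give no level, so the arrays cannot show which markers the cells expressed, and the part of cell identity in the falls of Cpt1a and Acadl was not tested.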

How the data were processed

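RNA of Prox1 and empty vector MMH cells came from column purification (replicate 4 from Trizol extraction) and DNase treatment, and Cy3 and Cy5 probes were made after a PCR amplification halted short of its plateau, per the labels' protocols. PCR can distort ratios. The authors deposited 1 score per feature and array, a scaled log-like ratio with an SD of 1 per column. For the scanner, background correction, normalization, scaling step, log base and genome build nothing is given in these sources, and zero on this scale is not the array median (medians 0.060, 0.055 and 0.058 with Prox1 in Cy5, −0.020 with Prox1 in Cy3). The files hold no signal over background, and the number of arrays limits the precision.

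Of 44290 features 41230 had a value. The 3 identical Cy3 columns, which the labels list as separate arrays, differed by less than any sampling noise and counted as 1 sample. Names came from a platform annotation of 2016, which gave 1 symbol to 31700 measured features, several to 47 and no symbol to 9483. Features with 1 symbol were averaged per gene (8251 of 19087 genes had more than 1), and 28617 features were tested with limma 3.58.1 in R 4.3.3 (duplicateCorrelation, consensus correlation 0.793, empirical Bayes, Benjamini-Hochberg). The random block was preferred to a fixed dye term because it keeps the difference between orientations in the error. The fits were tested on simulated data. Alternatives changed the model, the arrays, the centring, the normalization and the summary of features. A background, dim-probe or slide alternative was not possible without scanner values.

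The 8 genes, the gene lists and the model were chosen with earlier results of these data known. Named are the 8 genes, up to 3 passing genes per list by smallest adjusted p (otherwise the 2 largest effects), all ketone body and electron transfer flavoprotein genes, and the 5 nearest profiles. Pecr, Gpd1, Scd1, Elovl5, Ppara and the cell type markers that passed were added after their values were seen. So were the unpassed genes Fasn, Acaca, Acly, Pdk4, Angptl4, Plin2, Cyp4a10 and Cyp4a14. Lists were described by counts and medians only.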

Additional observations from a re-analysis of the deposited data

Results flagged for a closer look

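For 3 of the 8 genes the arrays with Prox1 in Cy5 differed from the profile with Prox1 in Cy3. Replicate 4, an array with Prox1 in Cy3, was extracted with Trizol, which cannot be told apart from a dye effect. How far that replicate enters the Cy3 profile is not known. For Cpt1a the difference came mainly from 1 of its 2 measured features. The difference, Cy5 minus Cy3, was −0.91 SD units for Cpt1a, 1.12 for Acadm and 1.17 for Acadvl, and it passed the limma test of the dye term. For Ehhadh it was 1.10 and did not pass (limma adjusted p = 0.091), but every Cy5 array was above 0 and the Cy3 profile below it. Such differences passed for 39.1% of all features tested, so a count of 3 in 8 does not set these genes apart.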

How the results depend on the processing

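The median effect of the 8 genes was negative in every alternative and moved by less than its SD between profiles. Of the 8 genes, limma passed 7 with a fixed dye term, 6 with no orientation term, 0 with the mean of each orientation as 1 replicate and 8 on the Cy5 arrays alone (7 lower, and Ehhadh higher with adjusted p = 0.035), against 2. Over all features it passed 12879, 6869, 0 (3975 at an unadjusted p under 0.05) and 16781 in these settings and 3673 with the identical columns counted singly, against 2406 (1439 lower, 967 higher). The fixed dye term leaves the difference between orientations out of the error, and the mean per orientation leaves 1 residual degree of freedom. The split of all calls turned to 5647 lower and 7232 higher with the fixed dye term and to 6872 and 9909 on the Cy5 arrays alone. Centring on the median gave 1407 lower and 859 higher. Without 1 of the Cy5 arrays the 8 genes kept 2 passes (Cpt1a and Acadl), and 1232 to 1388 of all features passed, with the correlation held at 0.793.

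Acadm passed in 4 of 12 alternatives, Cpt2, Hadha and Hadhb in 3 each and Acadvl in 2. Cpt1a and Acadl lost their calls only with the mean of each orientation as 1 replicate (adjusted p = 0.11 and 0.13). Signs of unpassed genes turned for Etfb (−0.0108 with no orientation term, −0.0247 on the Cy5 arrays alone, −0.07 to 0.069 without 1 Cy5 array and −0.0217 after centring), Bdh2 (−0.15) and Bdh1 (0.0947) on the Cy5 arrays alone, and Slc16a1 with the median of its features (0.22). The cause was not tested. Other values of the 36 further named genes, with Ppara and the unpassed synthesis and PPARα-linked genes not included, kept their sign. In all, 55 of 432 no longer passed and 17 newly passed. The number of orientation differences was 3 to 4 without 1 Cy5 array and 3 after centring, settings added after the data were seen. Each score already pairs both RNAs on the same array, and the orientations share no replicate number for any further pairing.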
